A study of Rattus norvegicus with 20 samples.

Results

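Jun and 9 other immediate early genes were followed in rat liver across 6 dose groups of tricresyl phosphate, an organophosphate found in plastics, flame-resistant materials and aircraft engine oils. The 10 genes are Jun, Junb, Fos, Fosb, Egr1, Dusp1, Klf6, Klf4, Ier3 and Ier5, named in a fixed list, and all 10 were measured among the 14217 genes of the array, through 18 of its 31042 probe sets. A probe set is a group of short probes that read 1 transcript or several similar ones, and 1 array was made from 1 rat. The list was chosen on earlier results of these same arrays, in particular the log2 change of Jun at 994.6 mg/kg against control, so the values of the 10 genes at 994.6 mg/kg are given as a description, and the counts of calls among them support nothing.

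All rats were male Harlan Sprague-Dawley, and all received corn oil by oral gavage on 4 consecutive days. The 5 control rats had corn oil alone, and 3 rats each had tricresyl phosphate in it at 62.3, 124.5, 248.6, 497.3 or 994.6 mg/kg. Liver was taken on day 5, after the last of the daily doses. The labels used here give no age, time of day or order of killing. Values are log2 expression values made by the authors with RMA, a method that corrects background, evens out the distributions of the arrays and summarizes probes, so differences are relative to most other genes on the array. Levels of different genes are not compared, since probes differ in how brightly they read.

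In the rat build GRCr8, Jun (gene ID 24516) lies at chr5:115009900-115012993, Junb (24517) at chr19:40081126-40082910, Dusp1 (114856) at chr10:17184853-17187646 and Klf6 (58954) at chr17:69449483-69458478, per RefSeq.

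Immediate early genes are switched on within minutes of a growth signal, a stress or tissue handling, with no need for new protein synthesis, and their transcripts are short-lived. Jun and Fos proteins pair through a leucine zipper to form AP-1, the transcription factor that the kinase JNK activates by phosphorylating Jun. Egr1, Klf4 and Klf6 are zinc finger transcription factors, Dusp1 is a phosphatase that switches MAP kinases off again, and Ier3 and Ier5 are small proteins linked to cell survival and stress responses. In liver, Jun is needed for the growth of fetal hepatocytes and for regeneration after partial removal of the organ.

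The stretches just upstream of 3 of these genes are shown because Dusp1 and Klf6 stood highest above control after Jun at 994.6 mg/kg, whereas Junb, the nearest relative of Jun, did not. Each runs from 250 bases before to 50 bases after the annotated start, 5′ to 3′ on the strand of the gene, in the rat build GRCr8 of RefSeq. Dusp1 lies at chr10:17184603-17184902 on the plus strand, Klf6 at chr17:69458429-69458728 on the minus strand and Junb at chr19:40080876-40081175 on the plus strand. Capitals mark matches, on either strand, to the cAMP response element TGACGTCA, the E-box CACGTG, the TATA sequence TATAAA and the CArG box, the site of serum response factor.
Dusp1: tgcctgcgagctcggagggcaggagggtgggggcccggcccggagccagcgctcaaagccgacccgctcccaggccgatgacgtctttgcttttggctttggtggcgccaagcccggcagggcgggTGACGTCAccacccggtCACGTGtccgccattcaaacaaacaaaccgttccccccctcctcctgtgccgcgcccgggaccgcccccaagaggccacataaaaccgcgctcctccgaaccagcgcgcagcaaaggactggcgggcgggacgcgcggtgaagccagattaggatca
Klf6: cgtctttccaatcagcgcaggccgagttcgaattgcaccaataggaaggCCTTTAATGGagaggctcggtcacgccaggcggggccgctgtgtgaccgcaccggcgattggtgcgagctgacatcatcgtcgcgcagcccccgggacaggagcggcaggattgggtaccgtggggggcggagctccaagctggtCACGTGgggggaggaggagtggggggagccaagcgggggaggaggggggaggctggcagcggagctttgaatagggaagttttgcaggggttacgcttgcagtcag
Junb: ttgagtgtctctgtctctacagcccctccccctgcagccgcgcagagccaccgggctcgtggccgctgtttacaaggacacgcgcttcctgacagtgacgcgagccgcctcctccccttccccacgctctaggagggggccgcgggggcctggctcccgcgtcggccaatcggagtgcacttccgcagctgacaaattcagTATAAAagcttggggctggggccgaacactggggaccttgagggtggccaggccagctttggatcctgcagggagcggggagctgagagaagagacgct
The Dusp1 window holds a cAMP response element 124 bases and an E-box 107 bases before the start, and the Klf6 window an E-box 56 bases and a CArG box 201 bases before it. The Junb window holds a TATA sequence 49 bases before the start. Among all 33469 promoter windows of this length, 1.83% hold the cAMP response element, 6.42% the E-box, 14.2% the TATA sequence and 1.64% the CArG box. Windows were at hand for 7 of the 10 genes. The AP-1 site TGANTCA, present in 7.33% of all windows, was in 0 of these 7, and 2 CArG boxes lay in the window of Egr1, 105 and 83 bases before its start. No matches in the printed windows overlap. A match is a run of letters and no evidence of binding, and a window without one says nothing about the factor.

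The arrays were much alike, and 1 stood apart. Within groups, pairs of arrays correlated at 0.986 to 0.996, and a principal component analysis put replicate 1 of 994.6 mg/kg at 37.1 on its leading axis (20.1% of the variance), with all others from -14.1 to 9.14. The difference between the 3′ and the 5′ probe set of the GAPDH control transcript, a sign of RNA integrity, was 0.72 ± 0.11 at 994.6 mg/kg (SD, n = 3) and 1.37 ± 0.18 in control (SD, n = 5), with 0.81 ± 0.10 at 497.3 mg/kg and 1.37 ± 1.05 at 124.5 mg/kg (SD, n = 3 each), where 1 array read 2.58. At 62.3 and 248.6 mg/kg it was 0.96 ± 0.13 and 0.99 ± 0.12 (SD, n = 3 each). Every array at 62.3, 248.6, 497.3 and 994.6 mg/kg lay below every control, and controls ran from 1.13 to 1.56. The remaining arrays at 124.5 mg/kg, at 0.755 and 0.767, did so too. For beta-actin the same difference averaged 2.5 in control and 1.977 to 2.225 in the dosed groups. The part of RNA integrity in the results was not tested beyond the fit with the GAPDH difference as a covariate. The 7 hepatocyte markers measured, such as Alb, Ttr and Cps1, all lay at or above the 99.6th percentile of genes by mean level.

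Jun, the main partner in AP-1, was high in the livers of the highest dose and at no other. Its brightest probe set read 10.50, 11.11 and 10.64 in the 3 rats at 994.6 mg/kg, against 9.04, 8.66, 8.99, 8.55 and 9.08 in the 5 control rats. All 3 treated rats lay above all 5 controls, so the groups did not overlap. The mean difference was 1.88 ± 0.23 on the log2 scale (SE), or 3.69-fold. The other probe sets of Jun gave 1.77 ± 0.19 and 1.69 ± 0.21, and in both of them all 3 rats at 994.6 mg/kg again lay above all controls. The one with 1.69 was made from the same source sequence as the brightest, so these readings are not independent. At the lower doses 5 rats were below every control in the brightest probe set. They read 8.12 (62.3 mg/kg), 8.25 (124.5 mg/kg), 8.48 and 8.45 (248.6 mg/kg) and 8.54 (497.3 mg/kg). There 1 rat at 248.6 mg/kg read 9.34, above every control. In the other probe sets no rat at 248.6 or 497.3 mg/kg was below every control, with differences of 0.027 to 0.085. By the brightest probe set the means at 62.3, 124.5, 248.6 and 497.3 mg/kg were 8.61 ± 0.47, 8.68 ± 0.40, 8.75 ± 0.51 and 8.62 ± 0.07 (SD, n = 3 each), against 8.87 ± 0.24 in control (SD, n = 5). None of these 4 passed the test against control in the limma fit over all genes (adjusted p from 0.74 to 1). At 994.6 mg/kg Jun was 2.13 ± 0.25 above its level at 497.3 mg/kg, which is 4.37-fold, with no overlap between the rats of these doses. In whole liver, fewer cells of a type and less RNA per cell cannot be told apart, and the same holds for more.

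**Figure D1:**
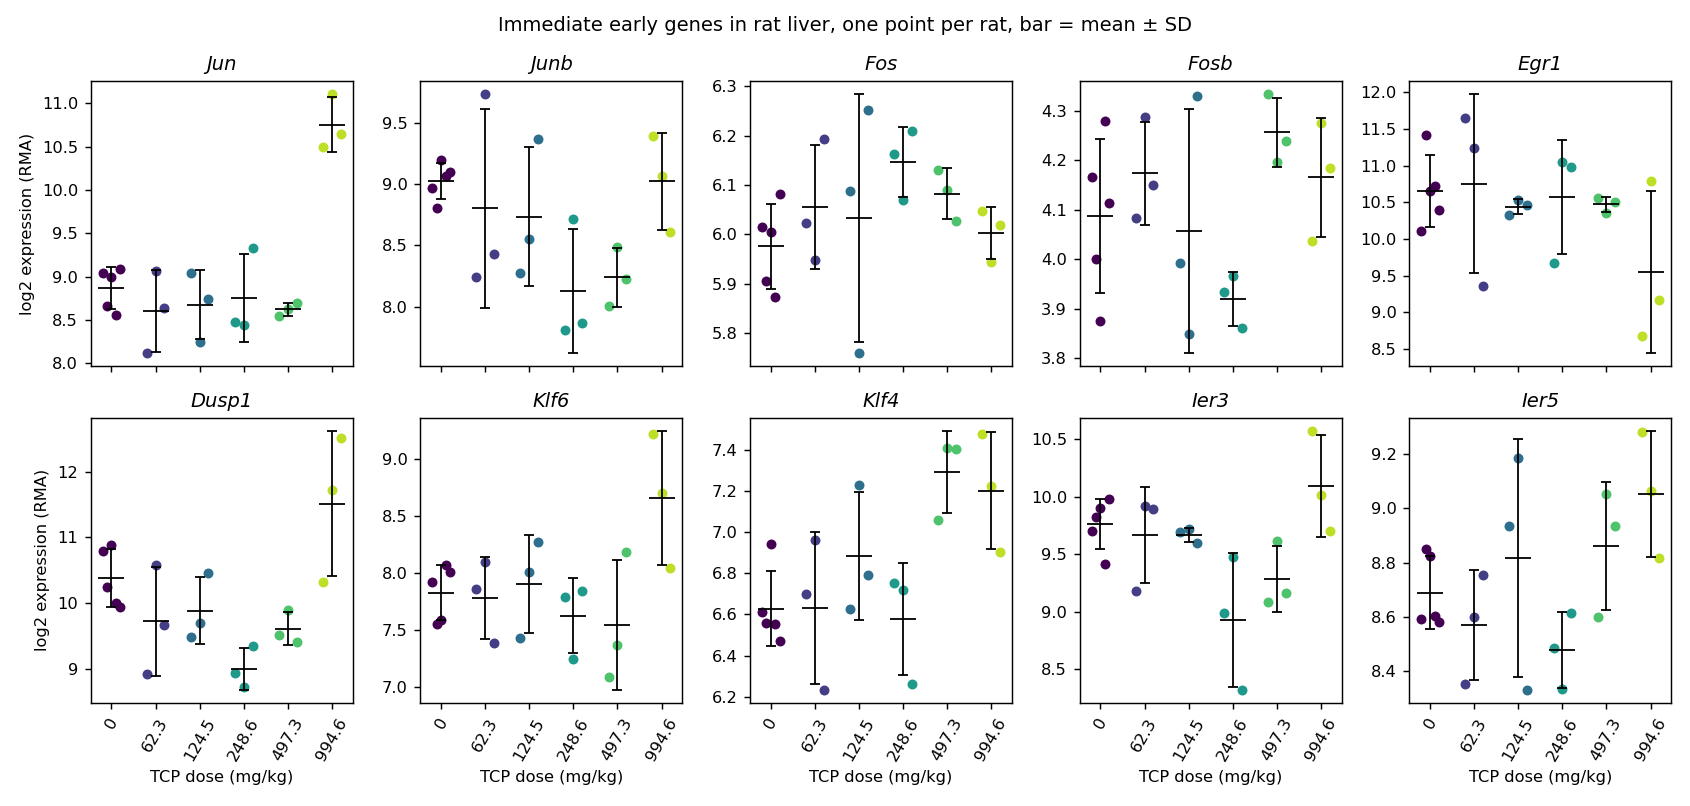
Log2 expression of the 10 genes by dose of tricresyl phosphate in mg/kg, with 1 point per rat and the mean ± SD of each group (n = 5 at dose 0, n = 3 otherwise). Jun stands at 10.50 to 11.11 at 994.6 mg/kg and at 9.34 or lower in every other rat, while Junb and Dusp1 have their lowest means at 248.6 mg/kg.

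Of the 10 genes, Jun was the only 1 whose rats at 994.6 mg/kg all lay above all controls, where 6.91% of all genes did so, and 0 of 10 lay wholly below, where 7.12% of all genes did. At an adjusted p under 0.05, 1 of 10 was called at this dose, against 4.47% of all genes, and at an unadjusted p under 0.05 it was 6 of 10, against 18.6%. Of all genes 635 were called, and 173 without replicate 1 of the dose. Because these values chose the list, nothing is read from those counts. The median change of the 10 genes was 0.35 at 994.6 mg/kg, against -0.01 for all genes.

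Junb, which forms AP-1 dimers of weaker activity and can restrain Jun, had a mean close to control at 994.6 mg/kg. It read 9.39, 9.07 and 8.61 at 994.6 mg/kg, against 8.97, 8.81, 9.19, 9.06 and 9.10 in control, a difference of -0.003 ± 0.30. At 497.3 mg/kg it read 8.01, 8.49 and 8.22, and at 248.6 mg/kg 7.81, 8.71 and 7.87. At each of these doses all 3 rats lay below all 5 controls. The differences were -0.90 ± 0.30 at 248.6 mg/kg (adjusted p = 0.586 over all genes, limma) and -0.79 ± 0.30 at 497.3 mg/kg (adjusted p = 0.261, limma), so neither passed the test. With only the control and 497.3 mg/kg groups in the fit, Junb at 497.3 mg/kg had an adjusted p of 0.00961 (limma). No other alternative called it, and that fit called 235 of all genes, against 104 in the main fit. It leaves out 62.3, 124.5, 248.6 and 994.6 mg/kg, where the SD of Junb was 0.81, 0.57, 0.51 and 0.395, against 0.24 at 497.3 mg/kg. At 62.3 and 124.5 mg/kg 1 rat each, at 9.73 and 9.37, was above every control, and the other 2 rats of each dose were below every control.

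At 994.6 mg/kg Fos and Fosb lay within the control range in the probe sets that represent them. For Fos, the classical partner of Jun, the probe set with the higher mean read 5.94 to 6.05 at 994.6 mg/kg, against 5.87 to 6.08 in control, and it differed by 0.03 ± 0.09. The other Fos probe set read 4.79, 7.83 and 4.53 at 994.6 mg/kg, against 4.47 to 5.47 in control. Only replicate 2 lay above the controls there, and the difference of 0.93 ± 0.52 rests on that rat. The probe sets of Fos thus disagree, and the second reached 5.61 in 1 rat at 497.3 mg/kg. Fosb, with 1 probe set, read 4.04, 4.28 and 4.19 at 994.6 mg/kg, against 3.88 to 4.28 in control, and its change of 0.08 ± 0.10 lay within the spread of the controls. Over all arrays the Fos probe sets averaged 6.04 and 4.83 and Fosb 4.11, below the array medians of 6.31 to 6.41. Whether they read above background was not tested, so an unchanged value here may be a dim reading.

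Egr1, a growth-induced zinc finger factor, had the largest negative difference of the 10 genes at 994.6 mg/kg. It read 8.68, 10.79 and 9.18 at 994.6 mg/kg, against 10.10, 11.41, 10.66, 10.72 and 10.39 in control, a change of -1.11 ± 0.47. Replicates 1 and 3 lay below all controls and replicate 2 lay among them. Without replicate 2 the change was -1.73 ± 0.46. Egr1 was spread widely at lower doses too, from 9.36 to 11.66 at 62.3 mg/kg, and stood close together at 124.5 mg/kg (10.33 to 10.53) and 497.3 mg/kg (10.36 to 10.56). Its means at 62.3 and 124.5 mg/kg were 10.76 and 10.44, against 10.66 in control.

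Dusp1, the phosphatase that ends JNK, p38 and ERK signalling, had a wide range. Its brighter probe set read 10.32, 11.72 and 12.51 at 994.6 mg/kg, against 10.80, 10.25, 10.89, 10.00 and 9.94 in control, a difference of 1.14 ± 0.40, or 2.20-fold. Replicates 2 and 3 lay above all controls, and replicate 1 was at the control level. The dimmer probe set read 5.78, 6.81 and 7.80 in the same rats, against 5.07 to 5.76 in control, a difference of 1.46 ± 0.30, with all 3 rats above the controls. At 248.6 mg/kg the brighter probe set read 8.93, 8.72 and 9.35, below all 5 controls, a difference of -1.38 ± 0.40 (adjusted p = 0.498, limma). It was below all controls at 497.3 mg/kg as well, with 9.52, 9.89 and 9.41 (change -0.77 ± 0.40, adjusted p = 0.461, limma). The dimmer probe set stood at 5.12 to 5.24 at 248.6 mg/kg and at 5.16 to 5.61 at 497.3 mg/kg, among the controls, so the low values at these doses appear in 1 of its 2 probe sets. The dimmer one averaged 5.585 over all arrays, below the array medians of 6.31 to 6.41. Whether it can show a fall from there was not tested.

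Klf6, a zinc finger factor induced by liver injury, was 0.83 ± 0.27 above control at 994.6 mg/kg by its brightest probe set, and 1.01 ± 0.24 and 1.06 ± 0.23 by the others. The brightest read 9.22, 8.70 and 8.04 at 994.6 mg/kg, against 7.92, 7.55, 7.59, 8.07 and 8.01 in control. Replicates 1 and 2 lay above all controls and replicate 3 just below the highest of them, while in both other probe sets all 3 rats were above. Klf4, a related factor with a part in cell differentiation, read 7.48, 7.22 and 6.90 at 994.6 mg/kg, against 6.47 to 6.94 in control, a difference of 0.57 ± 0.18. At 497.3 mg/kg it read 7.06, 7.41 and 7.40, above all 5 controls, and differed by 0.66 ± 0.18 (adjusted p = 0.101, limma). That difference had an adjusted p of 0.0394 with array weights, 0.035 with the GAPDH difference as a covariate and 0.0229 with only these groups fitted (limma). No other alternative called it. Those fits called 281, 113 and 235 of all genes at 497.3 mg/kg, against 104 in the main fit.

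Ier3, an early stress gene tied to NF-kB, read 10.57, 10.02 and 9.70 at 994.6 mg/kg, against 9.70, 9.82, 9.90, 9.41 and 9.98 in control, a change of 0.33 ± 0.23 with 2 rats above all controls. At 248.6 mg/kg it read 8.99, 9.48 and 8.32, with 2 of 3 rats below all controls (change -0.83 ± 0.23, adjusted p = 0.485, limma). Ier5, which acts in the heat shock response, read 9.28, 9.06 and 8.81 at 994.6 mg/kg, against 8.58 to 8.85 in control, a difference of 0.36 ± 0.16. Its other probe sets gave 0.15 ± 0.12 and 0.02 ± 0.10, so they did not show the same size. The last of them averaged 4.86 over all arrays, below the array medians of 6.31 to 6.41.

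The 3 rats at 994.6 mg/kg did not rank alike across genes. Replicate 1, the array that stood apart on the first principal component, was the highest of the 3 for Junb, Klf6, Klf4, Ier3 and Ier5 and the lowest for Jun, Egr1 and Dusp1. Replicate 3 was the highest for Dusp1 and the lowest of the 3 for Junb, Klf6, Klf4, Ier3 and Ier5. Replicate 2 was the highest for Jun and Egr1. Jun alone was far outside the control range in every one of them.

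**Figure D2:**
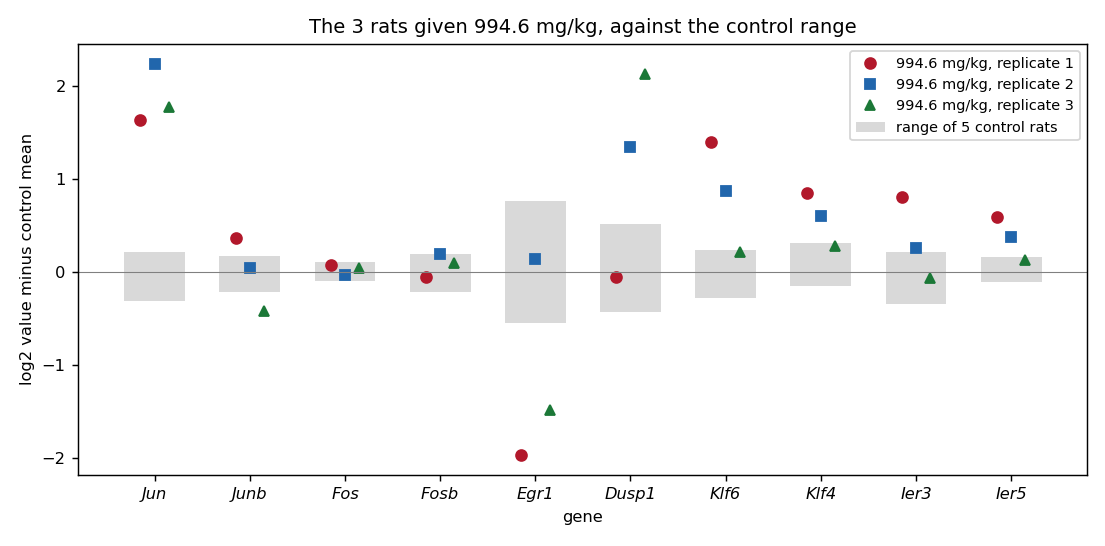
Log2 value minus the control mean for each of the 3 rats at 994.6 mg/kg (symbols), over the range of the 5 control rats (grey), for the 10 genes. Jun is above the grey range in all 3 rats, Dusp1 ranks replicate 3 highest and replicate 1 lowest, and Klf6 ranks them the other way round.

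**Figure D3:**
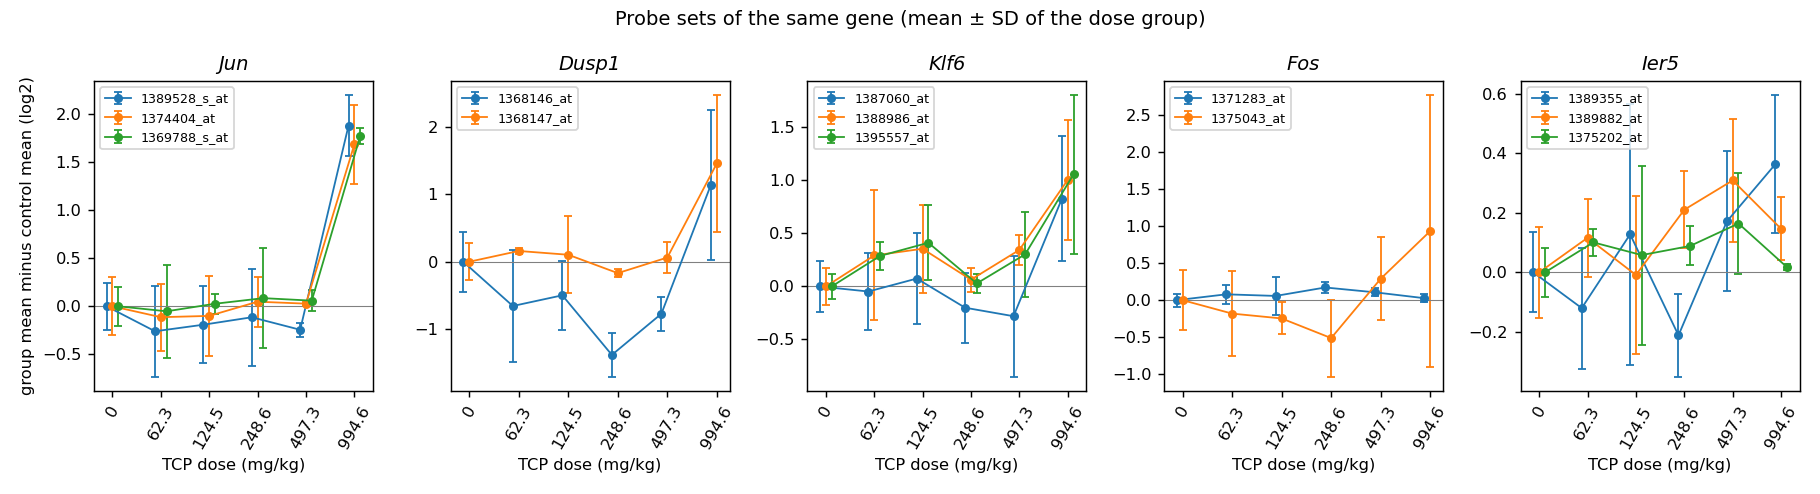
Group mean minus control mean (log2, with the SD of the group) by dose in mg/kg, for each probe set of the 5 genes that have more than 1. The 3 probe sets of Jun run together and stand 1.69 to 1.88 above control at 994.6 mg/kg, the pair for Dusp1 part at 248.6 mg/kg, and the large SD of the second Fos probe set at 994.6 mg/kg comes from 1 rat at 7.83.

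The 4 lower doses were compared with the same 5 controls. The values known to have chosen the list are those at 994.6 mg/kg, and whether lower doses also played a part is not known. By limma's adjusted p over all genes, 0 of 10 were called at 62.3, 124.5, 248.6 or 497.3 mg/kg. The shares of all genes called were 0.0%, 0.00703%, 0.0563% and 0.732%. At an unadjusted p under 0.05 the counts were 0, 0, 3 and 2 of 10, where 2.45%, 5.04%, 6.65% and 12.2% of all genes passed. At 248.6 mg/kg the 3 were Junb, Dusp1 and Ier3, all lower, and 9 of the 10 genes had a negative difference, with a median of -0.18 against 0.01 for all genes. Junb and Dusp1 were the 2 genes whose rats lay wholly below the controls at that dose, as did 3.07% of all genes. At 248.6 mg/kg 0 of 10 lay wholly above, where 4.25% of all genes did. At 62.3 mg/kg 0 of 10 lay wholly above or below, where 1.44% and 1.32% of all genes did, and at 124.5 mg/kg 0 of 10 did, where the shares were 2.24% and 1.27%. At 497.3 mg/kg Junb and Dusp1 lay wholly below again, where the share of all genes was 4.29%, and Klf4 lay wholly above, where it was 5.71%. A linear trend over the 12 rats from 62.3 to 497.3 mg/kg, which uses neither the controls nor the highest dose, called 0 of 10 genes by limma, against 0.0492% of all genes. At an unadjusted p under 0.05, 3 of 10 passed, where 6.67% of all genes did: Junb with a slope of -0.23 ± 0.10 and Ier3 with -0.19 ± 0.08 per dose step, and Klf4 with 0.17 ± 0.06. Their adjusted p-values were 0.713, 0.674 and 0.609 (limma). Of all genes 0.0141% were called lower along the trend.

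Some of the 10 genes varied together over the 20 arrays, which share the dose groups and each array's RNA. Pearson's r was 0.75 between Jun and Dusp1 and 0.64 between Jun and Klf6, and 0.49 and 0.14 over the 17 arrays without 994.6 mg/kg. Between Junb and Ier3 it was 0.75, and 0.72 over those 17 arrays, and between Junb and Dusp1 it was 0.54 and 0.76. Jun and Egr1 had an r of -0.43, and -0.09 over the 17 arrays. Over all 20 arrays the genes most like Jun were Atf3 (r = 0.87), Csrnp1 (0.85), Gdf15 (0.82), Ppp1r15a (0.81), Gadd45a (0.80), B3gnt2 (0.79), Nr1d2 (0.78) and C6 (0.77). Without the 3 arrays of 994.6 mg/kg these r values ran from -0.25 for Nr1d2 to 0.51 for C6. The genes most unlike it were Apmap (-0.78), Htra1 (-0.76) and Tubb2a (-0.76). By deviations from the group means, which leave the dose groups out, Mcm3 (0.85), Cep72 (0.80) and Oprl1 (0.78) were the most like Jun, and Atf3 had an r of 0.46.

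Among the other partners and relatives of AP-1, 2 of 14 measured genes rose at 994.6 mg/kg and 0 fell, where 2.5% of all genes rose and 1.96% fell. This list and the other related ones were chosen with earlier results of these arrays known, that of Atf3 among them. The counts are therefore a description. Atf3, a stress-induced factor that pairs with Jun, read 7.69, 7.58 and 7.11 at 994.6 mg/kg, against 5.46 to 5.90 in control, and rose by 1.76 ± 0.24 (adjusted p = 0.000361, limma). Atf4, the main factor of the integrated stress response, rose by 0.82 ± 0.17 (adjusted p = 0.00968, limma), a call that ended without replicate 1 of the dose (0.65, adjusted p = 0.0963, limma). The other 12 genes of the list, among them Jund, Fosl1, Fosl2 and Maff, were not called, and the median of the 14 was 0.07, against -0.01 for all genes. At the 4 lower doses 0 of 14 were called by limma, against 0.0% to 0.732% of all genes. There 0, 0, 1 and 2 passed an unadjusted p under 0.05, against 2.45%, 5.04%, 6.65% and 12.2% of all genes.

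Of 29 other immediate early genes measured, 2 rose at 994.6 mg/kg and 0 fell, where 2.5% of all genes rose and 1.96% fell. Csrnp1, a nuclear protein, read 7.95, 8.58 and 9.05 at 994.6 mg/kg, against 7.20 to 7.72 in control. It rose by 0.95 ± 0.17 (adjusted p = 0.00424, limma). Gdf15, a secreted stress cytokine, read 6.68, 8.02 and 8.22 against 6.24 to 6.72 in control, and rose by 1.23 ± 0.26 (adjusted p = 0.0104, limma). Its call ended without replicate 2 (1.04, adjusted p = 0.051, limma) or replicate 3 of the dose (0.94, adjusted p = 0.0537, limma). The median of the 29 was 0.18 at this dose, against -0.01 for all genes, and 21 of them had a positive difference.

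At 497.3 mg/kg, 3 of these 29 genes fell and 1 rose, where 0.218% of all genes fell and 0.513% rose. Errfi1, which damps EGF receptor signalling, read 11.66, 12.03 and 11.81 at 497.3 mg/kg, against 12.86 to 13.18 in control. It fell by 1.20 ± 0.19 (adjusted p = 0.00441, limma) and also fell along the trend from 62.3 to 497.3 mg/kg, with a slope of -0.40 ± 0.07 (adjusted p = 0.021, limma). The trend call ended with only these 4 groups fitted (adjusted p = 0.106, limma), with the trend and robust options of eBayes (adjusted p = 0.054, limma), and without replicate 1 or 2 of 62.3 mg/kg or any 1 rat of 497.3 mg/kg (adjusted p 0.0589 to 0.109, limma). Klf10, a TGF-beta-induced zinc finger factor, read 8.16, 8.46 and 8.02 at 497.3 mg/kg, against 9.02 to 9.71 in control, and fell by 1.23 ± 0.26 (adjusted p = 0.0347, limma). All 3 rats lay below all controls at 124.5 and 248.6 mg/kg as well. The Klf10 call ended without any 1 rat of these groups except control replicate 4 (adjusted p 0.0621 to 0.126, limma), and with the GAPDH difference as a covariate (adjusted p = 0.0644, limma).

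The other two genes called at 497.3 mg/kg were picked out after their values were seen. Ier2, a nuclear early response protein, fell by 0.86 ± 0.17 (adjusted p = 0.0244, limma), and its rats lay below all 5 controls at each of the 4 lower doses. Its means there were 9.57, 9.51, 9.42 and 9.28, against 10.14 in control, and at 994.6 mg/kg it read 9.62, 10.29 and 9.68. The Ier2 call ended without control replicate 2 or 3 or replicate 1 or 3 of 497.3 mg/kg (adjusted p 0.0535 to 0.124, limma) and with the GAPDH covariate (adjusted p = 0.0753, limma). Egr2, a relative of Egr1, read 5.53, 5.87 and 6.46 at 497.3 mg/kg, against 5.13 to 5.25 in control, and rose by 0.77 ± 0.17 (adjusted p = 0.043, limma). Its call ended without any 1 control rat or without replicate 2 or 3 of the dose (adjusted p 0.0701 to 0.182, limma) and with the GAPDH covariate (adjusted p = 0.0879, limma), and the mean of its probe sets changed by 0.26 (adjusted p = 0.282, limma).

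At 994.6 mg/kg the means of the 3 genes of this list that fell at 497.3 mg/kg were closer to control again. Klf10 read 10.40, 8.63 and 9.84, against 9.02 to 9.71 in control, so 2 rats lay above all controls and 1 below. For Errfi1 and Ier2, 2 rats each lay below all controls. Errfi1 differed from control by -0.29 ± 0.19, Klf10 by 0.18 ± 0.26 and Ier2 by -0.28 ± 0.17 (adjusted p = 0.448, 0.784 and 0.423, limma). Between 994.6 and 497.3 mg/kg the differences of these genes were 0.91 ± 0.21, 1.41 ± 0.29 and 0.58 ± 0.19 (adjusted p = 0.168, 0.0971 and 0.485, limma), so none passed the test of the difference itself. Among the 10 genes, Jun, Junb, Dusp1 and Ier3 had all 3 rats at 994.6 mg/kg above all 3 at 497.3 mg/kg, which makes 4 of 10, where 3.92% of all genes were, and 0 of 10 lay wholly below, where 6.82% of all genes did. Of the 10 genes 1 was called higher at 994.6 than at 497.3 mg/kg, against 0.0141% of all genes, and 5 passed an unadjusted p under 0.05, against 7.61%, and nothing is read from these counts since they use the arrays of the highest dose.

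Of 9 feedback inhibitors of MAP kinase signalling measured, 1 fell at 994.6 mg/kg and 0 rose, where 1.96% of all genes fell, and 1 fell at 497.3 mg/kg and 0 rose, where 0.218% of all genes fell. Dusp6, the phosphatase that dephosphorylates ERK, read 9.53, 10.09 and 9.75 at 994.6 mg/kg, against 10.45, 10.75, 11.11, 10.82 and 10.92 in control, and fell by 1.02 ± 0.22 (adjusted p = 0.0109, limma). It fell by 1.28 ± 0.22 at 497.3 mg/kg (adjusted p = 0.00827, limma), and its rats lay below all controls at 124.5 and 248.6 mg/kg too. The calls ended without replicate 1 of 994.6 mg/kg (-0.89, adjusted p = 0.0925, limma) and without replicate 3 of 497.3 mg/kg (-1.11, adjusted p = 0.0599, limma). The other 8 measured genes of the list, among them Dusp4, Dusp5 and the Sprouty genes, were not called. Of 12 kinases and factors upstream of AP-1, such as Mapk8, which encodes JNK1, 0 were called at any dose by limma. Of all genes 4.47% were called at 994.6 mg/kg and 0.0% to 0.732% at the lower doses. At 994.6 mg/kg 2 of the 12 passed an unadjusted p under 0.05, against 18.6% of all genes. The largest differences at that dose were 0.33 ± 0.16 for Map3k1 and 0.24 ± 0.13 for Map2k3 (adjusted p = 0.277 and 0.369, limma).

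Among 16 measured genes known to be regulated by AP-1 in other settings, 0 were called at 994.6 mg/kg by limma, against 4.47% of all genes, and 4 passed an unadjusted p under 0.05, against 18.6% of all genes. Hmox1, the heme-degrading enzyme, read 12.46, 9.70 and 9.42 at 994.6 mg/kg, against 8.59 to 9.28 in control, a difference of 1.58 ± 0.50 (adjusted p = 0.0783, limma), with all 3 rats above all controls and replicate 1 far above the others. Cxcl1, a chemokine for neutrophils, was spread from 7.78 to 12.70 at this dose and differed by -1.16 ± 0.86 (adjusted p = 0.517, limma). At 497.3 mg/kg 2 of the 16 rose, where 0.513% of all genes did. Ccl2, a chemokine for monocytes, read 5.87, 8.39 and 9.13 at 497.3 mg/kg, against 4.44 to 5.28 in control, and rose by 2.87 ± 0.48, or 7.32-fold (adjusted p = 0.00736, limma), a call that ended without replicate 2 of the dose (2.58, adjusted p = 0.0567, limma). Cxcl2 rose by 0.46 ± 0.09 (adjusted p = 0.0244, limma), and its call ended without control replicate 2 or 3 or replicate 3 of the dose (adjusted p 0.0526 to 0.128, limma), with the GAPDH covariate (adjusted p = 0.0631, limma) and without control replicates 4 and 5 together (adjusted p = 0.0883, limma).

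**Figure D4:**
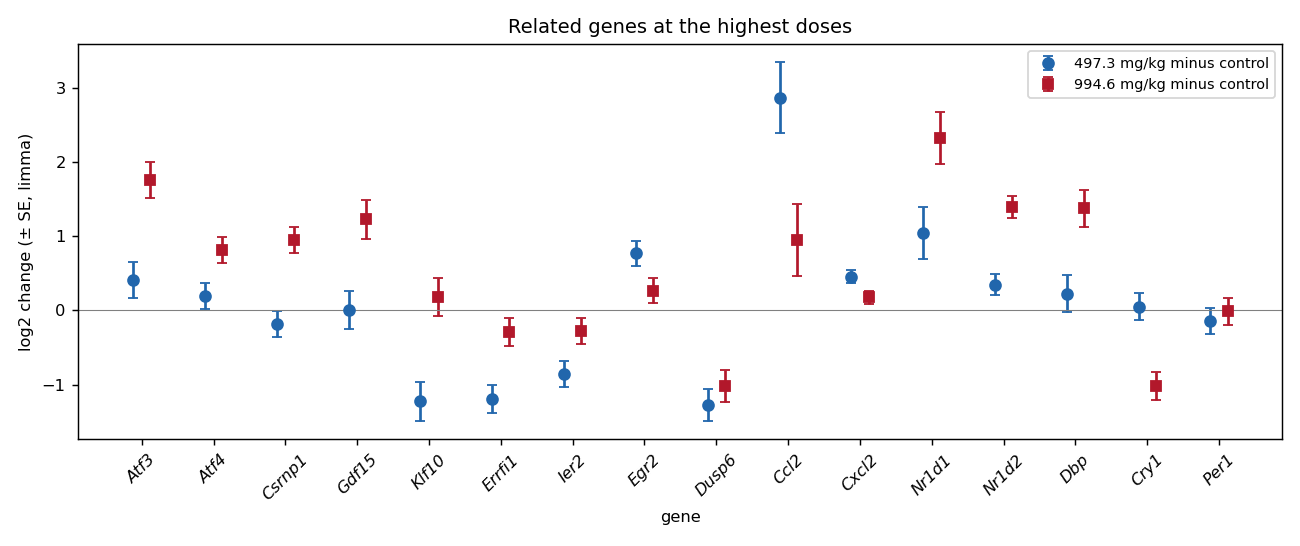
Log2 change against control at 497.3 and 994.6 mg/kg (limma estimate ± SE) for genes of the related lists. Atf3, Csrnp1 and Gdf15 are high at 994.6 mg/kg, Klf10, Errfi1 and Ier2 are low at 497.3 mg/kg, Dusp6 is low at both and Ccl2 is highest at 497.3 mg/kg.

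At 994.6 mg/kg, where Jun was high, clock genes moved too, and the list was chosen with earlier results of Nr1d1 and Dbp known. The liver clock runs on a daily cycle in which Nr1d1 and Dbp peak in the light phase, and several immediate early genes respond to feeding, handling and time of day. Of 14 clock genes measured 3 rose and 2 fell at 994.6 mg/kg, where 2.5% of all genes rose and 1.96% fell, the second that fell being Npas2, picked out after its value was seen (-0.71 ± 0.12, adjusted p = 0.00328, limma). Nr1d1 read 7.73, 8.17 and 8.69 at 994.6 mg/kg, against 5.62 to 6.27 in control, and rose by 2.32 ± 0.35 (adjusted p = 0.000734, limma). Nr1d2 rose by 1.40 ± 0.14 and Dbp by 1.38 ± 0.25, and Cry1 fell by 1.02 ± 0.19 (adjusted p = 2.79e-05, 0.00367 and 0.00405, limma). Per1, which is also an immediate early gene in many cells, differed by -0.01 ± 0.18 (adjusted p = 0.98, limma). At 497.3 mg/kg, where Jun was not high, 0 of 14 clock genes were called by limma, against 0.732% of all genes. At an unadjusted p under 0.05 it was 5 of 14, against 12.2%. Nr1d1 differed there by 1.04 ± 0.35 (adjusted p = 0.202, limma), with 2 rats above all controls. The part of the clock in the values of Jun was not tested.

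Markers of other liver cells gave these values beside the 10 genes. At 994.6 mg/kg 0 of 7 macrophage, 0 of 5 endothelial, 0 of 7 stellate cell, 0 of 4 neutrophil and 0 of 4 lymphocyte markers were called by limma, and 1 of each of these lists at most passed an unadjusted p under 0.05. Of all genes 4.47% were called at this dose, 2.5% higher and 1.96% lower, and 18.6% passed an unadjusted p under 0.05. At 497.3 mg/kg 0.513% of all genes were called higher. The mean of the macrophage markers ran from 9.59 to 9.84 at 994.6 mg/kg, against 9.24 to 9.80 in control, and that of the endothelial markers from 9.18 to 9.62, against 9.41 to 9.61 in control. Of 5 erythroid markers 4 fell (Hbb, Hba-a3, Alas2 and Ahsp, with changes of -1.63 to -0.53), with a mean level of 7.58 to 8.58 at 994.6 mg/kg, against 9.24 to 9.38 in control. That level was below every control at each of the 4 lower doses too, at 8.94 to 9.07, 8.76 to 9.04, 8.73 to 8.82 and 8.62 to 8.88 from 62.3 to 497.3 mg/kg. The stellate cell markers averaged 7.94 to 8.24 at 994.6 mg/kg, against 8.11 to 8.39 in control, the neutrophil markers 5.22 to 6.48, against 5.37 to 6.04 in control, and the lymphocyte markers 5.62 to 5.82, against 5.73 to 5.84 in control. Of 4 cholangiocyte markers 1 rose, Epcam (0.69 ± 0.14, adjusted p = 0.00632, limma), and it also rose at 497.3 mg/kg (0.86 ± 0.14, adjusted p = 0.00476, limma), the dose at which Ccl2, Cxcl2 and Egr2 rose and Errfi1, Klf10 and Ier2 fell. Its part in those values was not tested. Of 7 hepatocyte markers 0 were called by limma and 2 passed an unadjusted p under 0.05, and their mean ran from 14.46 to 14.59 at 994.6 mg/kg, against 14.63 to 14.68 in control. The part of blood content in the values of the immediate early genes was not tested.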

How the data were processed

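Liver RNA of 20 rats was read on 1-colour Affymetrix arrays. Per the submitters' processing notes, the authors deposited log2 values from RMA. Its version and which arrays it normalized jointly are not given in the sources used here. They run from 2.74 to 15.36. Of 31099 probe sets 57 were controls. Symbols came from the platform annotation, updated through RefSeq, for 20826 probe sets, and a gene was its probe set of highest mean, which left 14217 genes. No filter on low values was used, and the number of arrays limits the precision. Each array is a different rat per the labels, so p-values measure the spread between rats.

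Group means were estimated over all 20 arrays by limma 3.58.1 in R 4.3.3 (14 residual and 4.77 prior degrees of freedom). A call is an adjusted p under 0.05 (Benjamini-Hochberg over all genes), and errors of changes are standard errors. The trend is a linear contrast over 4 dose steps. The fit was tested on simulated data. The 10 genes and the lists were chosen with earlier results of these data known, among them those of Jun, Atf3 and the clock genes. All 10 are named. Of each list the rule names up to 4 genes called at 994.6 mg/kg, or the 2 largest changes where 0 were called, up to 2 called at each lower dose, Nr1d1, Dbp and Per1, and the 8 genes most and 3 least correlated with Jun. Alternatives covered probe sets, normalization, filter, eBayes options, array weights, replicate block, RNA integrity, arrays in the fit and left-out arrays.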

Additional observations from a re-analysis of the deposited data

Results flagged for a closer look

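Control values were screened for a rat far from the others in the 10 genes and in the named genes of the lists, 30 genes in all, and 2 were found, both in control replicate 4. For Csrnp1 the lowest control rat read 7.20, with the others at 7.58 to 7.72, a gap that took 0.72 of the whole range, where the critical ratio for 5 rats is 0.71. For Per1 the highest control rat read 8.19, with the others at 7.65 to 7.74, a gap of 0.84 of the range. Chance flags about 1 in 20 groups. Groups of 3 rats were not screened.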

How the results depend on the processing

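The counts at 994.6 mg/kg rest on values that chose the list and support nothing. Of the 10 genes, the number called at 994.6 mg/kg was 1 and became 3 with each probe set on its own or with the mean of probe sets, 5 with array weights and 2 with the GAPDH difference as a covariate, and ran from 1 to 3 with an array left out. Against 497.3 mg/kg it was 1, and became 3 with array weights and 1 to 2 with an array left out. Of all genes 3 were called there, and 122 with array weights. At 497.3 mg/kg against control the number of the 10 genes called was 0. It became 1 with array weights or the GAPDH covariate (Klf4) and 2 with only the groups compared (Klf4 and Junb). These fits called 281, 113 and 235 of all genes, against 104 in the main fit. For the other immediate early genes at 994.6 mg/kg the number called was 2. It became 4 with quantile normalization, 1 without the lowest 50% of genes, 12 with array weights and 1 to 4 with an array left out. Over the 4 lower doses it was 4, and became 1 with the GAPDH covariate, 1 without control replicates 4 and 5 and no block, and 1 to 4 with an array left out. Of all genes, 635 were called at 994.6 mg/kg, against 687 with the mean of probe sets and 450 with the GAPDH covariate. The number was 2841 with array weights and 985 with quantile normalization. It was 310 with the replicate block and 250 without control replicates 4 and 5. It was 173 without replicate 1 of 994.6 mg/kg, the array that stood apart. The replicate block, which leaves out those 2 controls too, gave 2 calls for the other immediate early genes at the lower doses in place of 4, and 0 and 1 for the 10 genes at 497.3 and 994.6 mg/kg. It ended the calls of Klf10, Egr2, Dusp6 and Ccl2 and the trend call of Errfi1. Leaving out control replicates 4 and 5 with no block ended those of Klf10, Egr2, Ier2, Cxcl2 and Dusp6 and the trend call of Errfi1, and the trend and robust options of eBayes ended that of Klf10 (adjusted p = 0.0535, limma). Deviations of rats with the same number had median correlations of 0.034, 0.014 and 0.05, against -0.029 for different numbers in different groups. The correlations run over all genes, so they do not settle whether the numbers pair the rats. Of the single-gene values under the alternatives 1143 stayed on their side, 58 lost a call, 15 gained one and 6 moved, and none changed the sign of a called value. The causes were not tested. The fit without control replicates 4 and 5, and the alternatives for single list genes, were added after the data were seen. With 3 rats a dose, the number of arrays limits the precision.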
